A study of Mus musculus with 6 samples.

Results

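Radial glia and stem cell markers are described here across the genes of 1 comparison of mouse embryonic neural stem cells. The set was given by name, and it was chosen with earlier results of these data known. It lists 9 genes: Fabp7, Fabp5, Nes, Vim, Prom1, Msi1, Msi2, Pax6 and Hopx. Of these, 8 have a row among the 12316 gene rows, and Prom1, which encodes the membrane glycoprotein prominin 1, is not among the rows analysed here. The cells were neural stem cells of CD-1 mice, from E14.5 embryos, bought from a commercial source and expanded as an adherent layer on poly-L-ornithine and laminin with EGF and bFGF. All 3 groups were transduced with a lentivirus and kept under puromycin at 0.5 µg/mL. The groups were cells with a scrambled shRNA, with Sox4 shRNA 1 and with Sox4 shRNA 2, each with 2 libraries of poly(A) RNA, 6 libraries in all. The series' design text calls the libraries of a group biological duplicates from different passages. Sox4 encodes a transcription factor of the SoxC group. The series' design text speaks of 1 shRNA against Sox4, whereas the sample labels name 2.

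Radial glia are the elongated stem cells of the embryonic brain. They line the ventricle, divide there, and give rise to neurons first and to glia later. In culture with EGF and FGF, cells with many of the same genes can be kept dividing as neural stem cells. The members stand for different parts of that identity: lipid-binding proteins of the cytoplasm (Fabp7, Fabp5), filaments of the cell body and process (Nes, Vim), a protein of apical protrusions (Prom1), RNA-binding proteins that regulate translation (Msi1, Msi2) and nuclear regulators (Pax6, Hopx).

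The data are the authors' own Cuffdiff comparison of a first and a second condition. The table gives 1 level per gene and condition, and its header names neither condition. Directions below therefore compare the second condition with the first, and which of them carried a Sox4 shRNA was not assigned. The levels are read as FPKM, which counts fragments per length of transcript and per number of mapped fragments, because Cuffdiff writes that unit. The header does not state it. There are no values per library, so no SD, n or depth stands behind any level, and all tests are the authors'. Where 2 levels of a gene follow each other, the first condition comes first. A gene "rose" or "fell" where the authors flagged it as significant, which corresponds to a q (a p-value adjusted for the number of genes) of up to 0.0494. Such a gene is termed called. The lowest Cuffdiff p, 5e-05, was shared by 230 rows. Their q of 0.00304 is the lowest given and does not rank them. For Sox4 itself, the targeted gene, the authors' deposited table lists 126.8, then 83.9, with a q of 0.0543 that did not earn a call. The lincRNA gene Gm26735 shares exon sequence with Sox4 on the opposite strand.

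The markers did not move as 1 group. Fabp7 and Hopx fell, Nes rose, and Fabp5, Vim, Msi1, Msi2 and Pax6 were not called. So 1 of the 8 members was called higher and 2 were called lower, by the Cuffdiff flag. Over all gene rows the share called was 4.99%, with 3.17% higher and 1.83% lower. At a stricter q of 0.01, where 2.54% of rows are called (1.65% higher, 0.893% lower), Hopx drops out and Fabp7 and Nes remain. With the flag joined to a minimum of 1 for the size of the log2 fold, 1.81% of rows are called (1.09% higher, 0.723% lower), and of the members Fabp7 alone. The 5 members that were not called had log2 folds from -0.32 to 0.13 as the authors' deposited table gives them, a lowest q of 0.397, and in 0 cases an unadjusted p under 0.05. The median log2 fold of the 8 members was -0.12, beside 0.0033 for all rows. All 8 members had a level of at least 1 in the higher condition, so a filter at that level removes none of them. In bulk RNA, fewer cells of a type and less RNA of a gene per cell cannot be told apart.

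The upstream sequence of the 3 members that were called is shown first, because these genes went in opposite directions. The sequences are from RefSeq on GRCm38.p6, 200 bases each, from 250 to 51 bases before the annotated start and 5′ to 3′ on the strand of the gene. The last 50 bases before the start are left out, and the 3 windows shown then overlap no GENCODE exon. Positions are chr10:57784673-57784872 (plus strand) for Fabp7, chr5:77115174-77115373 (minus strand) for the more distal of the 2 listed starts of Hopx, and chr3:87970843-87971042 (plus strand) for Nes. Capitals mark a match to any of 4 motifs searched on both strands: the SOX cores ACAAAG and ACAATG, the RBPJ core TGGGAA and the POU octamer ATGCAAAT.
Fabp7: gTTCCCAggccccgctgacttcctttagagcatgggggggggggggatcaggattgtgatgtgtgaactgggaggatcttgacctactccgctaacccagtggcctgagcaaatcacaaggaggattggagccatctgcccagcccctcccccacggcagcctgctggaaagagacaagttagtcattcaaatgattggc
Hopx: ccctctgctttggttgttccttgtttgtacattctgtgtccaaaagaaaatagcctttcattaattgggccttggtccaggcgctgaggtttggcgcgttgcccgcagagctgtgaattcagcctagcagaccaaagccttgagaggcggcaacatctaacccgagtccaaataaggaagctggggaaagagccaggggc
Nes: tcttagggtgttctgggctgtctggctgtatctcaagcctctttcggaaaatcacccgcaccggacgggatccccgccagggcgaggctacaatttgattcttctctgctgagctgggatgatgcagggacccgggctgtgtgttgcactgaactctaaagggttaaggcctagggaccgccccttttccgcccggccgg

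Only Fabp7 of these 3 windows held a match, a reverse complement of the RBPJ core from 249 to 244 bases before the start. RBPJ is the DNA-binding partner of the activated Notch receptor. The same core is found in 17.9% of all 32851 windows of this length. A SOX core of either spelling is found in 21.2% of all windows, and the octamer in 1.32%. In all, 7 of the 9 listed genes have an entry, with 12 starts between them, and the windows at the 3 starts of Msi2 overlap. The first listed start of Prom1 also has a reverse complement of the RBPJ core, from 116 to 111 bases before it. Of the 12 windows 1 holds a SOX core, at the second listed start of Pax6. That window overlaps an exon of Pax6, as 7 of the 12 windows overlap an annotated exon. These matches describe letters only and say nothing of what binds there. By base composition the windows of Fabp7 (57.0% GC) and Nes (59.0% GC) lay above the median of 51.5% over all windows, and that of Hopx stood at 52.0% GC. The Nes window held 11 CpG dinucleotides, that of Hopx 6 and that of Fabp7 3, beside a median of 4.

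The fatty acid binding proteins are small carriers of long-chain fatty acids. Fabp7, also known as brain lipid-binding protein, is the form typical of radial glia (chromosome 10, 57784881 to 57788450). The authors' deposited table puts it at 4620 under the first condition and 2286 under the second. It was thus 2.02-fold lower, and the authors' deposited table gives a log2 fold of -1.02 and a Cuffdiff q of 0.00304. Only the rows named Klhl17 and Snord104 were higher in the first condition, and in the second Fabp7 ranked 10. Among the 1232 rows with the highest mean level, 13 others fell at least as far as Fabp7, whether or not they were called.

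Fabp5, the epidermal form, is also found in neural precursors (chromosome 3, 10012548 to 10016607). Here the authors' deposited table has 541 and 434. Its log2 fold of -0.32 carried a Cuffdiff q of 0.397, so no change was called. Stretches of 408 and 409 bases of its transcript are shared at 97.3% and 98.3% identity with the processed pseudogenes Gm14328 and Gm6166, and reads could be split between them. For Fabp7 no such stretch was found. Fabp7 was 8.55 times the level of Fabp5 in the first condition and 5.26 times in the second. Of the 15 genes listed for the wider family of lipid-binding and retinoid-binding proteins, 3 have a row. For the remaining one, Fabp3, the heart form, the authors' deposited table has 0.717 and 0.648.

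Both intermediate filament members are long used as stem cell markers. Their log2 folds were both positive, and only Nes was called. Nes encodes nestin, a very large filament protein that assembles with vimentin (chromosome 3, 87971078 to 87980451). Its entries in the authors' deposited table are 98.1 for the first condition and 170 for the second. That is 1.73-fold higher, with 0.79 as log2 fold and a Cuffdiff q of 0.00304. Vim encodes vimentin, the partner filament (chromosome 2, 13573927 to 13582826). For vimentin the authors' deposited table holds 709 and 775, a log2 fold of 0.13 and a q of 0.827. Vimentin was 7.23 times the level of nestin in the first condition and 4.56 times in the second. The difference between the log2 folds of Vim and Nes, -0.66, was not tested.

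**Figure D1:**
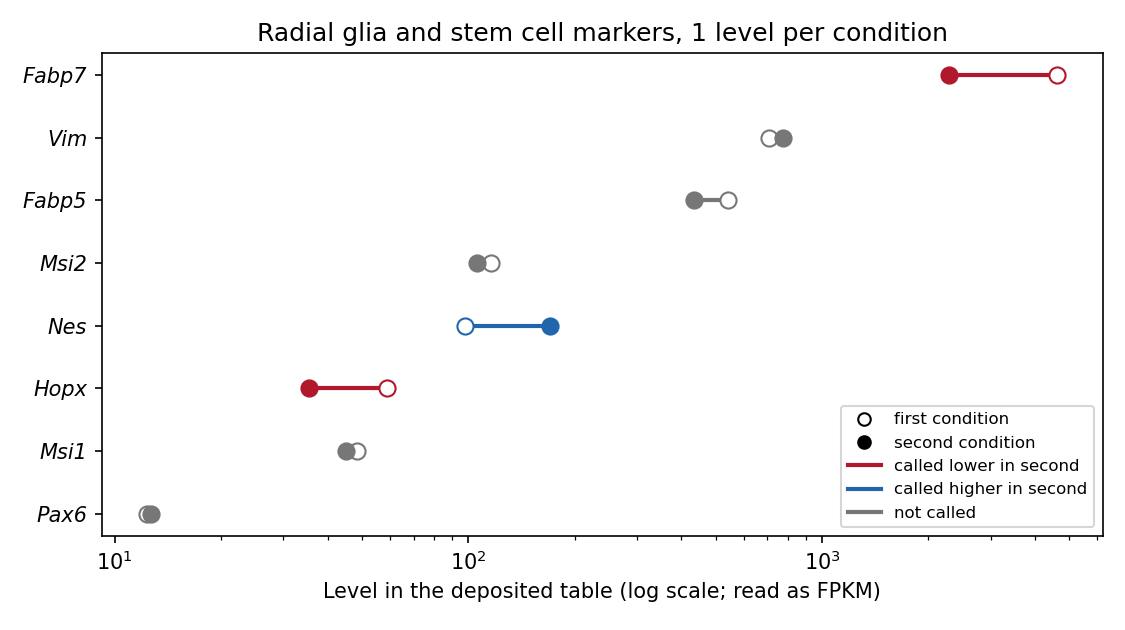
Levels of the 8 members with a row, on a log axis, with an open circle for the first and a filled circle for the second condition, 1 value each and no error. Red lines join the called falls (Fabp7, Hopx), blue the called rise (Nes) and grey the members not called, and Nes crosses above Msi2 while Hopx drops below Msi1.

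Of 16 listed filament genes, Nes and Vim included, 7 have a row: Nes rose, Gfap fell and 5 were not called. That is 28.6% called, beside 4.99% of all rows. Gfap, the filament that marks astrocytes and is found in postnatal neural stem cells, fell 5.84-fold with a Cuffdiff q of 0.00304, its levels being 29.7 and then 5.08 per the authors' deposited table. Lmnb1, which encodes a lamin of the nuclear envelope, had 164 and 181 per the authors' deposited table, without a call. The median log2 fold of the 7 genes was 0.14.

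Prominin 1 sits on microvilli and other protrusions of the apical membrane, where radial glia touch the ventricle. Prom1 has no row, and of 16 listed genes of the prominin family, apical junctions and polarity 11 do. Among these 1 rose, 0 fell and 10 were not called, with a median log2 fold of 0.16. That is 9.09% called, beside 4.99% of all rows, and the count rests on 1 gene. The rise was that of Mllt4, which encodes the junction protein afadin, which the authors' deposited table lists at 9.23 before 15.3 (q of 0.00304 by Cuffdiff). Its transcript is in the longest of 10 groups of rows by length, where rises were most frequent, as described below. Ctnnb1, which encodes beta-catenin, had 379 and 358 per the authors' deposited table. Cdh2, the N-cadherin gene, had 120.0 and 108 per the authors' deposited table. Neither gene was called.

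Musashi proteins bind messenger RNAs of stem cells and repress or promote their translation. Msi1 (chromosome 5, 115429599 to 115455698) had 48.4 and 45.2 per the authors' deposited table, with a q of 0.871. Msi2 (chromosome 11, 88339382 to 88718513) had 116 and 106 per the authors' deposited table, with a q of 0.918. Msi2 was 2.40 times the level of Msi1 in the first condition and 2.34 times in the second, so the order of this pair and its spacing were close in both. The log2 fold of Msi2 was less firmly placed than those of the other members. Divided by the authors' test statistic it came to 0.62 log2 units per unit of the statistic, a ratio larger than that of 86.5% of rows. For the other 7 members the ratio lay between 0.30 and 0.34, and its median over all rows was 0.35. Of 16 listed Musashi family genes, targets and partners, Msi1 and Msi2 included, 12 have a row, and Cuffdiff called 0 of them in either direction. Beside the 4.99% called over all rows, a count of 0 among 12 says little of these genes. Their unadjusted p was under 0.05 in 0 cases.

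Of the nuclear regulators Hopx was called and Pax6 was not. Pax6 is a paired-box transcription factor of dorsal forebrain progenitors (chromosome 2, 105668900 to 105697364). It was the lowest of the members and the nearest to no difference, with 12.4 and 12.6 per the authors' deposited table and a q of 0.969. That level is close to the median row, which had 12.5 and 12.7. Hopx encodes a small homeodomain protein that does not bind DNA, known from outer radial glia and from quiescent stem cells (chromosome 5, 77086988 to 77115121). The authors' deposited table shows it at 58.8 under the first condition and 35.5 under the second. That is 1.66-fold lower, with -0.73 as log2 fold and a Cuffdiff q of 0.0105. Exons of the antisense gene Hopxos overlap those of Hopx. Whether the counting used strand is not given in the sources used here, and without it reads of this pair are indistinguishable.

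Of 24 listed genes of the Pax family and other forebrain progenitor factors, 12 have a row, of which 0 rose, 2 fell and 10 were not called. That is 16.7% called, beside 4.99% of all rows. The falls were at low levels. Nr2f2, a nuclear receptor of caudal and ventral forebrain, had 0.861 and 0.138 per the authors' deposited table. Gsx1, a homeobox factor of the ventral forebrain, had 3.44 and 1.54 per the authors' deposited table. Tcf4, the highest of this list, had 78.5 and 69.6 per the authors' deposited table, and Nr2f1 had 19.1 and 18.5. Neither was called. Pax2, Pax3, Pax7 and Pax8 are not among the rows analysed here.

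Genes named together with Hopx in outer radial glia were listed as 14, of which 12 have a row. Tnc and Moxd1 rose, Hopx fell and 9 were not called. That is 25% called, beside 4.99% of all rows, with Hopx itself among the calls. Tnc, the matrix protein tenascin C, had 35.5 and 94.5 per the authors' deposited table, a difference opposite in sign to that of Hopx. Moxd1, a monooxygenase-like protein, had 0.191 and 0.914 per the authors' deposited table, both low levels. Ptprz1, a receptor phosphatase of radial glia and oligodendrocyte precursors, had 547 and 576 per the authors' deposited table. Acsbg1, an acyl-CoA synthetase, had 448 and 517 per the authors' deposited table, and both remained without a call.

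**Figure D2:**
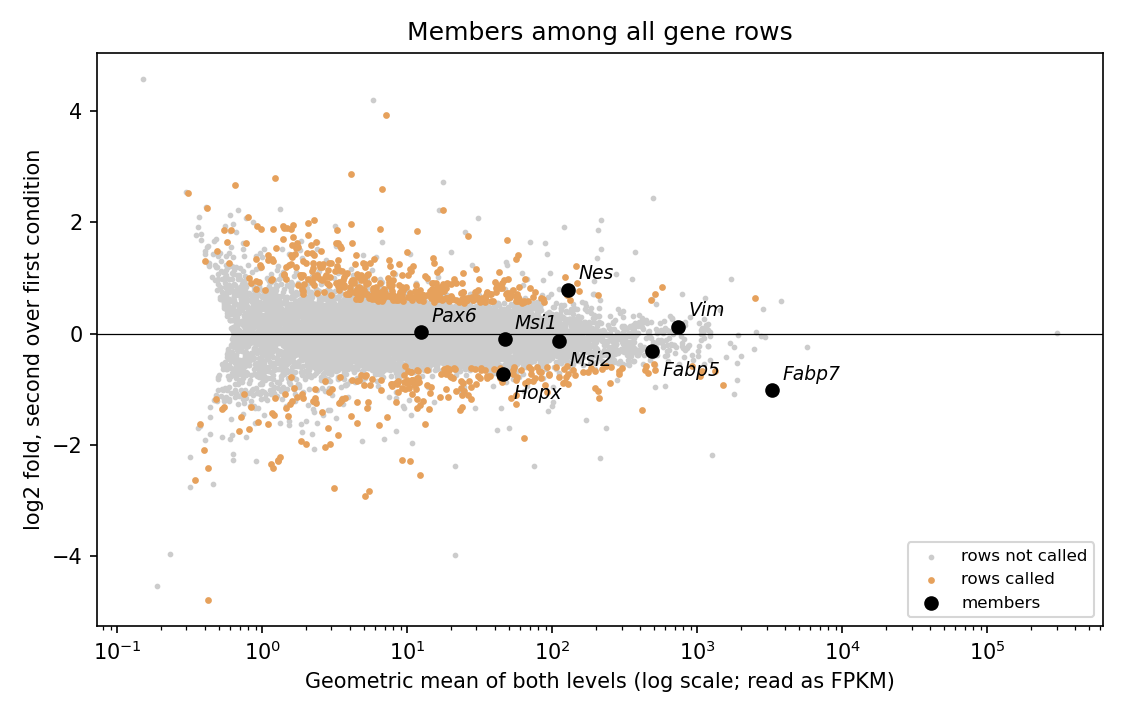
The log2 fold of second over first condition (vertical axis) against the geometric mean of both levels (horizontal log axis) for all 12316 gene rows, grey where not called and orange where called, with the 8 members in black. Fabp7 lies at the far right of the falls, Nes above the band of rows not called, Hopx at its lower edge, and the remaining members within it.

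In the order of levels, Fabp7, Vim and Fabp5 led in both conditions. Msi2, Nes, Hopx and Msi1 followed in the first, and Nes, Msi2, Msi1 and Hopx in the second. Pax6 was last in both. Without values per library, it cannot be said which neighbours in this order differ beyond their spread. Because of its level, Fabp7 carries most of the set's sum. The levels of the 8 members summed to 6204 under the first condition and 3864 under the second. Without Fabp7 the sums were 1584 and 1578. Ratios between members differed between the conditions. Fabp7 was 47.1 times the level of Nes in the first condition and 13.5 times in the second. Nes was 1.67 times the level of Hopx in the first condition and 4.79 times in the second. The ratio of Fabp7 to Hopx, both of which fell, was 78.6 and then 64.4.

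Rows nearest in level and fold were taken for each called member, by distance over the 2 log2 levels, with 3 rows each. For Nes these were Fam120a, Eno1b and Sptan1. Fam120a, which encodes an RNA-binding protein, was the closest, with 99.0 and 161 per the authors' deposited table. All 3 were called higher. For Hopx the rows were Cox7c, a subunit of cytochrome c oxidase, Scp2, a sterol carrier, and Clk4, a kinase of splicing factors. Cox7c had 60.8 and 33.3 per the authors' deposited table. Cox7c and Scp2 were called lower and Clk4 was not called. Fabp7 had no close neighbour. Its nearest rows, Rpl41, Eef1a1 and 2010107E04Rik, were 0.72 to 0.78 log2 units away, and none of these 3 was called (the lowest Cuffdiff q was 0.448). By the search used for Fabp5, transcripts of Eef1a1 share near-identical stretches with 8 other genes, those of Eno1b with 3, and those of Rpl41 and Scp2 with 1 each, so reads of these 4 could be split. Likeness over 2 values is a description of those values alone.

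Transcript length moved with the calls across the whole table. Rows of known length were put into 10 equal groups, from the shortest to the longest transcript. In the shortest group 0.417% of rows were called higher and 2.58% lower, and in the longest group 13.3% higher and 1.25% lower. Fabp7 and Fabp5, with transcripts of 880 and 987 nt, are in the shortest group, whose median log2 fold was -0.23. Hopx, with 1261 nt, is in the second group, at a median of -0.09. Nes and Msi2, with 6126 and 6436 nt, are in the ninth, at a median of 0.12, where 4.67% of rows were called higher. The called members thus went in the direction in which their length groups leaned. Relative to the median of the group, the log2 fold was -0.78 for Fabp7, -0.64 for Hopx and 0.67 for Nes. In the same length group 5.75% of rows fell at least as far as Fabp7, 4.42% at least as far as Hopx, and 3.75% rose at least as far as Nes, counted without regard to calls. The part of length in these folds was not tested beyond these values.

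**Figure D3:**
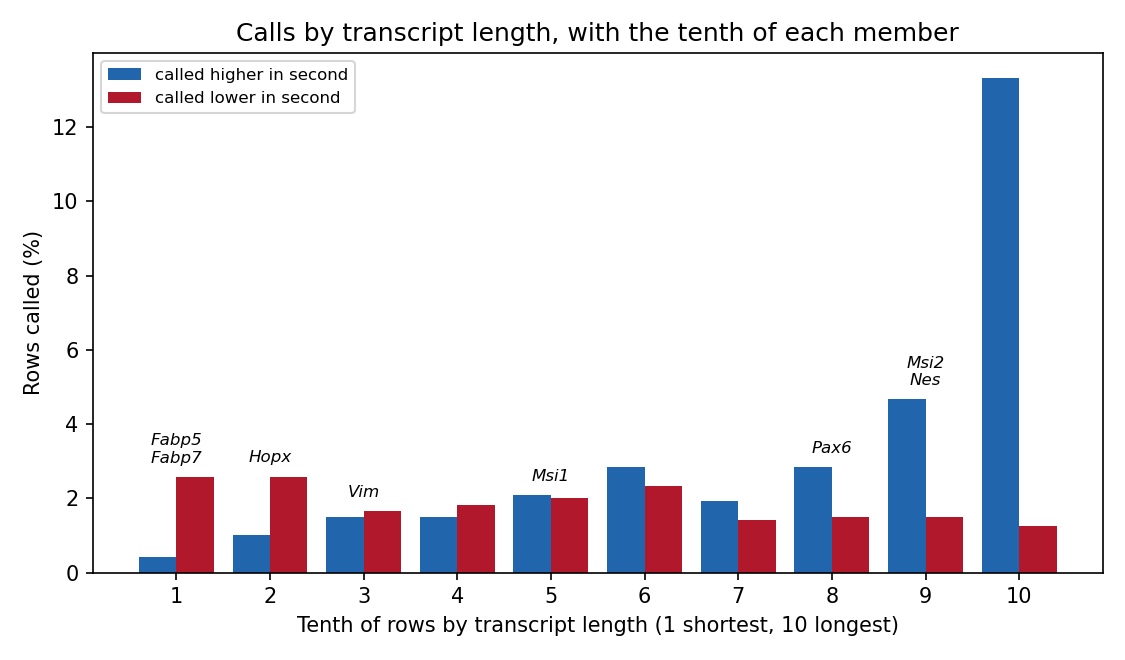
Percent of rows called higher (blue) and lower (red) in 10 equal groups of rows by transcript length, with the members of each group written above its bars. Rises climb from 0.417% in the shortest to 13.3% in the longest group, Fabp7, Fabp5 and Hopx stand among the short transcripts, and Nes and Msi2 in the ninth group.

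Other genes of radial glia and neural stem cells also went both ways. Of 50 listed, 46 have a row, of which 4 rose, 7 fell and 35 were not called. That is 23.9% called, beside 4.99% of all rows, and the median log2 fold was -0.23. Of the 46 log2 folds 31 were negative and 15 positive. Among the 35 genes not called, 15 had an unadjusted Cuffdiff p under 0.05. The list was chosen with earlier results of these data known, and several of its genes also mark astrocytes. Slc1a2, a glutamate transporter, Glul, which encodes glutamine synthetase, and Ttyh1, a membrane protein, were among the falls. So were Hes5 and Id3, repressors of differentiation, Dbi, which binds acyl-CoA, and Hmga2, a chromatin protein of fetal stem cells. Dbi, like Fabp7 an abundant short transcript of lipid metabolism, had 2059 and 1086 per the authors' deposited table. Glul had 339 and 184 per the authors' deposited table, and Ttyh1 had 175 and 93.7. Hmga2 fell between low levels, 1.63 and 0.539 per the authors' deposited table.

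The rises were those of Tnc, Sox1, Gli3 and Notch1. Sox1, a SoxB1 factor of neural progenitors, had 10.8 and 20.3 per the authors' deposited table, with a Cuffdiff q of 0.00304. Gli3, a mediator of hedgehog signalling, had 3.41 and 5.94 per the authors' deposited table, and the receptor gene Notch1 had 22.9 and 35.0. Tnc, Gli3 and Notch1 are in the longest length group and Sox1 in the eighth, while Slc1a2, a fall, is in the longest as well. Several core markers of the same cells were not called. Sox2, the SoxB1 factor that maintains neural stem cells, had 59.7 and 51.1 per the authors' deposited table. Slc1a3, the glutamate transporter of radial glia, had 544 and 565 per the authors' deposited table. Aldoc, an aldolase and the highest of those not called, had 1101 and 796 per the authors' deposited table, with a q of 0.175.

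**Figure D4:**
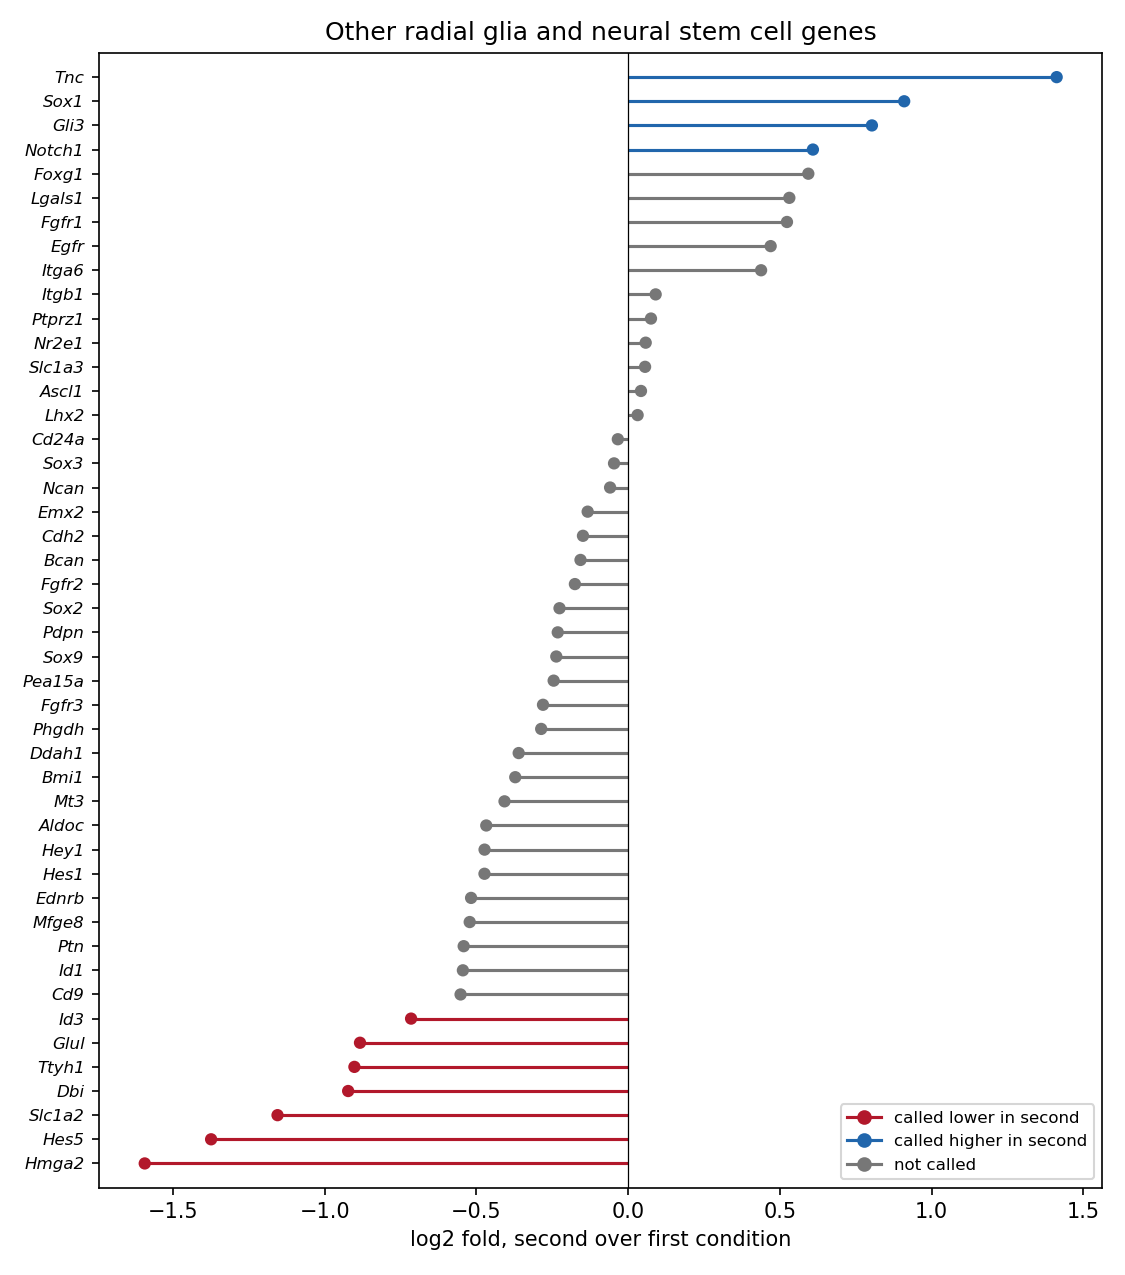
The log2 fold of second over first condition for the 46 other radial glia and neural stem cell genes with a row, in order of size. Red marks the 7 genes called lower, from Id3 to Hmga2, blue the 4 called higher, with Tnc the largest, and grey the 35 not called.

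Markers of other cell types were read in the same rows, and their part in the members' folds was not tested. Among 12 astrocyte markers with a row 5 fell and 1 rose, which is 50% called, beside 4.99% of all rows. Their summed level was 1834 and then 1283. Aldoc, which was not called, held the largest part of that sum, with 1101 and 796 per the authors' deposited table. Apoe, a lipid carrier of glia, had 315 and 141 per the authors' deposited table, and Gfap, Agt, Aqp4 and Slc1a2 were the other falls. Aldh1l1, a folate enzyme used as an astrocyte marker, rose. Of 8 oligodendrocyte lineage markers 2 fell (Gpr17 and Lhfpl3), which is 25% called, and the sum was 1519.5 and 1293. Of 8 markers of neurons and neuroblasts 1 fell, Elavl4, which is 12.5% called, and the sum was 140.2 and 141. Most of that sum was Map2, which was not called and had 122 and 127 per the authors' deposited table. Elavl4 is also the single fall among 4 intermediate progenitor markers (25% called), with a sum of 62.5 and 50.0. Of 4 fibroblast and mesenchymal markers, Acta2 and Fbn1 rose and Twist1 fell (75% called), with a sum of 35.0 and 61.7. Most of that sum was Acta2, with 29.4 and 55.8 per the authors' deposited table. Fbn1 (1.63 and 3.78) and Twist1 (2.73 and 0.515) were at low levels. Foxj1 rose among 3 ependymal markers (33.3% called), with a sum of 25.5 and 40.2. Shares in lists this short rest on few genes. The 7 endothelial and 8 microglial markers are not among the rows analysed here, nor are Dcx, Eomes, Sox10, Mbp and Col1a1. The labelled cell type can be set against these levels, which differ widely among the members. Fabp7, Vim and Fabp5 are among the highest 136 rows in both conditions. Hopx ranked 1631 and then 2690, Pax6 ranked 6195 and then 6183, and Prom1 has no row. Olig1, an oligodendrocyte lineage marker, ranked 51 and then 52, so high ranks were not particular to the members.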

How the data were processed

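Poly(A) RNA of 6 libraries was sequenced after preparation with a SOLiD kit, per the labels' protocols. Per the submitters' processing notes, the tools were Cufflinks 2.2.1, TopHat2 2.0.9 and Cuffdiff (version not listed), with build mm10. The authors deposited 1 Cuffdiff table of 12316 gene rows and 1 line without a gene. Its 2 level columns are deposited without a unit (kept here as a score) and are read as FPKM by the authors' Cuffdiff, since that is what this tool writes. Per the file headers, the table also holds a log2 fold, a test statistic (also a score), a p-value and a q-value. The annotation, use of strand, pooling and depth behind it are unknown here.

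No test was refitted, because the table has no values per library. The series' design text names different passages as the duplicates and does not state separate cultures, so the authors' p-values may measure technical spread. Counts, medians, ranks and ratios were computed with Python 3.11.15, numpy 2.4.6 and pandas 2.3.3, and figures drawn with matplotlib 3.10.9. Lengths (longest coding transcript) and positions come from GENCODE release M21 on GRCm38, which may differ from the annotation the authors used. Of the symbols, 11693 matched as written and 461 by way of a synonym. Shared sequence was searched with BLAST+ 2.17.0, at 95% identity or more over at least 300 nt. Recomputed q-values follow Benjamini-Hochberg, and this step and the length groups were tested on simulated data.

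Members and lists were chosen with earlier results of these data known. All members, Sox4 and the 3 rows nearest to each called member are named. Of each list, called genes (at most 10) and the 2 with the highest level are candidates to be named, and Sox2, Slc1a3, Fabp3 and Notch1 were named outside this rule after their values were seen. A listed gene was left out and is not reported here.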

Additional observations from a re-analysis of the deposited data

How the results depend on the processing

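The count of 1 member called higher and 2 called lower was the same with q recomputed over rows of at least 1 or at least 5 in the higher condition, or over rows that name 1 gene. At a q of 0.01 (2.54% of all rows called) 1 member was called lower, since Hopx was lost, and 1 higher. Where the flag was joined to a minimum of 1 for the size of the log2 fold (1.81% of all rows called) 1 member, Fabp7, was called lower and 0 higher. Under that rule the 7 falls and 4 rises of the other radial glia genes became 3 and 1. The members' median log2 fold of -0.12 lay between -0.12 and -0.08 with pseudocounts of 1 and 5, centring, level filters or length groups taken into account, beside an SD of 0.55 over the 8 members. Relative to its length group the log2 fold of Pax6 turned from 0.03 to -0.044. Under the rules for calls above, 65 counts of called genes in the lists stayed within 1.5 times and 20 were lower by more than that, leaving out counts that were 0 to begin with. No paired analysis was possible because libraries are not given singly in the deposited comparison. Dropping either replicate could not be run on it either. Depth is unknown, so no limit from it can be stated.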
